A study of Mus musculus with 21 samples.

Results

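The genes described here are 37 mouse genes of the autophagy machinery and its cargo receptors, chosen by name for what their proteins do. Earlier results of these data were known when they were chosen. They are 37 of the 20145 gene symbols that could be placed on the array, and a gene with several probes was read from its brightest probe over all 21 arrays. Of the 37 genes, 36 passed the filter on dim probes in both experiments and were tested, which asks that a probe be well above background on every array of some group. Atg4a did not pass it. RNA came from MIN6m9 cells, a subclone of a mouse insulinoma line that models the insulin-secreting beta cell. In the first experiment wild-type MIN6m9 cells received the saturated fatty acid palmitate at 400 uM for 48 h (3 arrays), the unsaturated fatty acid oleate at 400 uM for 48 h (3 arrays), or neither (untreated, 3 arrays). In the second experiment, MIN6m9 cells carrying the Fv2E-PERK transgene received the dimerizer AP20187 at 1 nM for 6, 12, 24 or 48 h, or a mock treatment with the ethanol vehicle, and wild-type MIN6m9 cells received a mock treatment, with 2 arrays in each of these groups. All groups are the same insulinoma line and not primary islets. The labels do not say whether the Fv2E-PERK cells are 1 clone or a pool, which promoter drives the transgene, or when untreated and mock cells were harvested. AP20187 on wild-type cells is not analysed here.

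Autophagy encloses cytoplasm in a double membrane and carries it to the lysosome. The Ulk kinase complex starts the process, a class III PI3-kinase marks the growing membrane with PI3P, PI3P-binding proteins and lipid carriers extend it, and ubiquitin-like conjugation attaches Atg8 proteins (the LC3 and GABARAP families) to it, where cargo receptors bind. PERK is a kinase of the endoplasmic reticulum that phosphorylates eIF2alpha under stress, which lowers most protein synthesis while the transcription factors ATF4 and CHOP are made. Several autophagy genes have been reported as targets of ATF4 or CHOP in mouse fibroblasts. In the Fv2E-PERK fusion the kinase domain is joined to a domain that AP20187 brings together, so that PERK signalling can be switched on without other stress. In beta cells autophagy is known to be needed for normal cell mass and insulin secretion.

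Signals are given as log2 of the processed signal minus the 75th percentile of the same array (log2 relative signal), so 0 is the 75th percentile of an array, and changes are differences of group means on that scale with the standard error of the fit. The words rose and fell are kept for an adjusted p of limma under 0.05, with p-values adjusted over all entries tested. The labels do not say that replicates came from separate cultures, so these p-values measure the spread between the arrays, which may be technical. Of 12 beta cell markers, 11 or 12 were well above background on some array of every group. Their summed relative signal (linear) was 1881 to 2031 at 6 h, 1896 to 2061 at 12 h, 1841 to 2099 at 24 h and 2289 to 2470 at 48 h of AP20187, against 3021 to 3269 in mock Fv2E-PERK cells, and its part in the changes below was not tested. The number of arrays limits the precision. In bulk RNA, fewer cells of a type and less RNA per cell cannot be told apart. From a list of 10 integrated stress response genes, Atf3 and Trib3 were higher with AP20187 at 6 h by 5.58 (SE 0.077) and 2.65 (SE 0.12) on the log2 scale, and with palmitate by 2.62 (SE 0.088) and 1.40 (SE 0.084). The signal at the 75th percentile was 625 to 662.5 at 6 h, 513 to 551 at 12 h, 469 to 557 at 24 h and 739 to 823 at 48 h, against 391 to 463 in mock Fv2E-PERK cells and 380 to 423 in mock wild-type cells. Scaling to 7 spike-in probes instead moved the median change of all entries by 0.66 at 6 h, 0.73 at 12 h, 0.93 at 24 h and 0.59 at 48 h against Fv2E-PERK mock, and by 0.18 for palmitate against untreated. Directions below are therefore relative to the bulk of an array's signal, and values after spike-in scaling stand beside the genes they turn round. Of the 10 integrated stress response genes, 8, 9, 9 and 8 rose after spike-in scaling at 6, 12, 24 and 48 h, and 1 fell at 48 h. Of all 23386 entries 9093, 10491, 12975 and 10086 rose there. With palmitate 8 of the 10 rose, beside 1132 of 21279 entries. Per the scan headers, the arrays of Fv2E-PERK mock, 6, 12 and 24 h lie on 1 slide and those of 48 h and wild-type mock on another, so that slide and time cannot be told apart where 48 h is set against Fv2E-PERK mock.

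With AP20187 most of the autophagy genes changed in Fv2E-PERK cells, in both directions. On the 75th-percentile scale 5 of 7 conjugation genes and none of 5 cargo receptors rose at 6 h, and 5 and 4 did at 24 h. After spike-in scaling 7 and 3 rose at 6 h and 7 and 5 at 24 h, where 9093 and 12975 of all 23386 entries rose. At 6 h on the 75th-percentile scale, 11 genes rose and 11 fell of 36. Among all 23386 entries tested, 64.9% passed in that comparison. At 12 h, 15 rose and 10 fell (67.7% of all entries passed). At 24 h, 18 rose and 9 fell (67.4% of all entries passed), and at 48 h, 17 rose and 10 fell (61.8% of all entries passed). The calls of the autophagy genes thus lay more on the higher side. Among all entries 24.9%, 27.1%, 27.0% and 27.2% rose at the 4 times and 40.0%, 40.5%, 40.4% and 34.6% fell. The median change of the 36 genes was 0.071, 0.11, 0.31 and 0.32, beside -0.225, -0.19, -0.20 and -0.068 over all entries. All entries include dimmer ones, while the 36 genes were well above background on all 21 arrays. Of 18776 entries well above background on every PERK array, 13919, 14192, 14080 and 12942 passed at the 4 times. Of these 18776 entries 5108, 5314, 5333 and 5096 rose. Atg101, Atg14, Uvrag, Atg3, Atg7 and Atg16l1 rose at all 4 times, which is 16.7% of the 36 genes beside 12.9% of all entries. Ulk1, Ulk2, Atg13, Atg2b, Atg4c and Gabarapl2 fell at all 4 times on the 75th-percentile scale, beside 19.7% of all entries, and after spike-in scaling none of their falls passed. Atg16l2, Atg4d, Map1lc3b and Gabarapl1 rose at some times and fell at others, again on that scale (11.1% of the genes beside 10.3% of all entries). Another 12 genes rose at 1 to 3 times and fell at none (33.3% beside 19.4% of all entries). A further 6 fell at 1 to 3 times and rose at none (16.7% beside 27.15% of all entries). Pik3c3 and Pik3r4 passed at no time against mock (5.6% beside 10.57% of all entries).

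**Figure D1:**
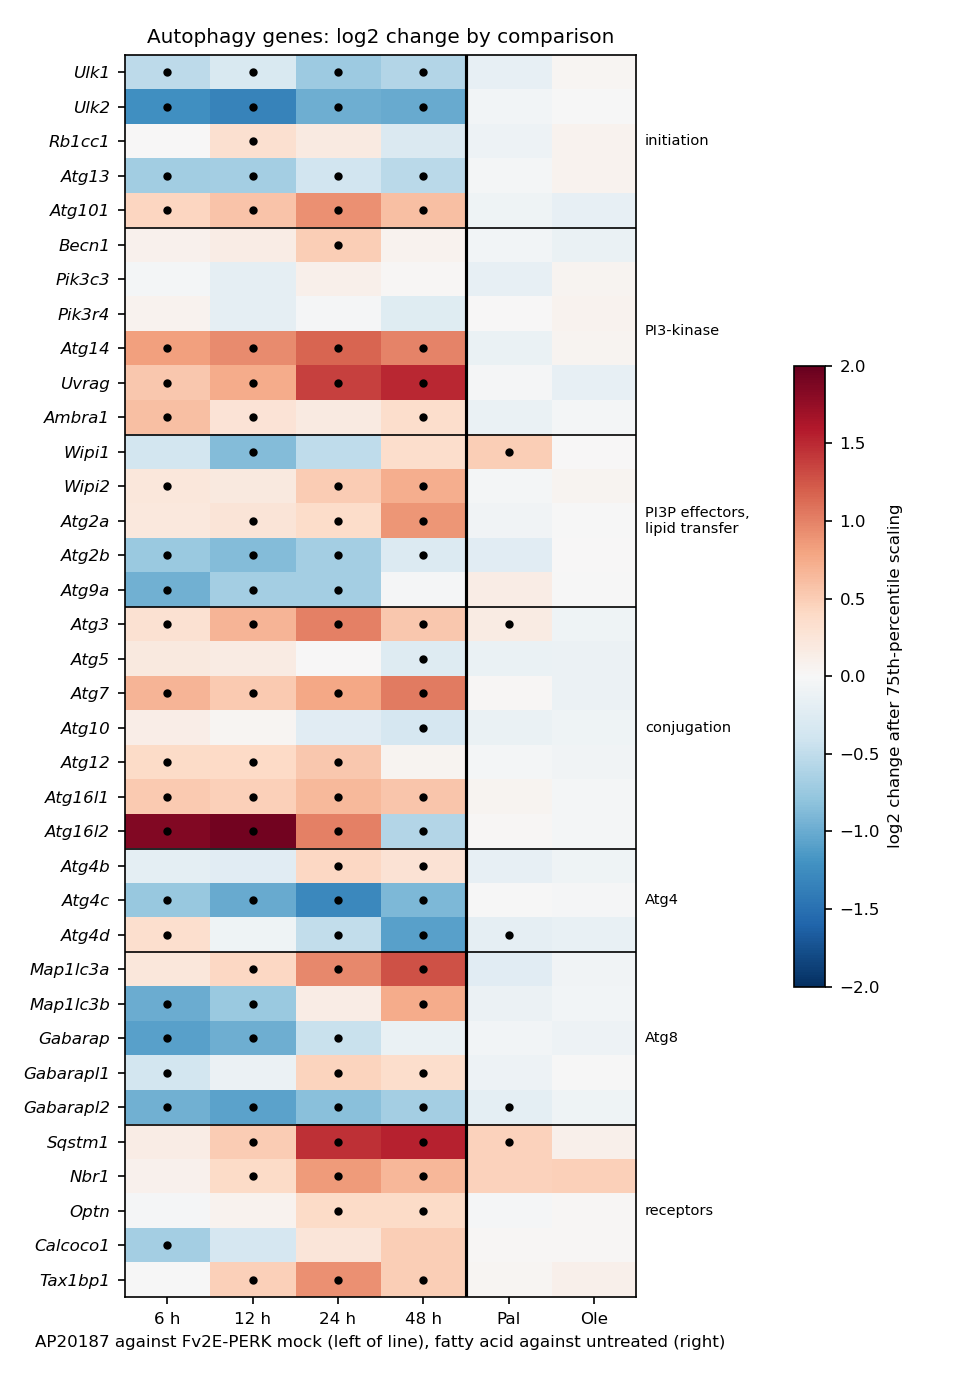
Log2 change of the 36 tested autophagy genes (rows, by role) at 6, 12, 24 and 48 h of AP20187 against Fv2E-PERK mock (2 arrays a group) and for palmitate and oleate against untreated (3 arrays a group), after 75th-percentile scaling. Black dots mark adjusted p under 0.05. The rows of Map1lc3b, Gabarapl1 and Calcoco1 turn from blue at 6 h to red at 48 h, Gabarapl2 stays blue, Atg16l2 turns from red to blue, and the falls do not pass after spike-in scaling.

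In the initiation complex the genes moved apart: the kinases Ulk1 and Ulk2 and the adaptor Atg13 fell at every time, while Atg101, the partner that stabilises Atg13, rose at every time. The brightest probe of the scaffold Rb1cc1 passed at 12 h only, and a second probe also at 24 h. After spike-in scaling the falls of this complex did not pass. Ulk2 had a log2 relative signal of 1.03 and 0.89 in mock Fv2E-PERK cells, -0.27 and -0.26 after 6 h, -0.43 and -0.31 after 12 h, 0.06 and -0.10 after 24 h and -0.11 and 0.01 after 48 h. Its wild-type mock arrays read 0.95 and 1.24. All 8 AP20187 arrays thus lay below all 4 mock arrays. Its change was -1.22 (SE 0.12, adjusted p = 4.39e-05) at 6 h, the largest fall of the 36 genes at that time, and -1.33 (SE 0.12) at 12 h, -0.98 at 24 h and -1.01 at 48 h. After spike-in scaling it stayed below 0, at -0.56, -0.61, -0.047 and -0.42, and passed at no time. For Ulk1 the pairs were 3.28 and 3.27 in mock, 2.72 and 2.79 after 6 h, 2.99 and 2.94 after 12 h, 2.57 and 2.51 after 24 h and 2.69 and 2.68 after 48 h. The wild-type mock pair was 3.04 and 3.12. The groups did not overlap, with changes of -0.52, -0.31, -0.73 and -0.59 (SE 0.068 each), which became 0.15, 0.41, 0.20 and -0.0035 after spike-in scaling. Atg13 stood at 4.01 and 4.03 in mock, 3.34 and 3.32 after 6 h, 3.33 and 3.34 after 12 h, 3.66 and 3.62 after 24 h and 3.49 and 3.46 after 48 h. Mock wild-type cells had 4.26 and 4.52. Again every AP20187 array was below every mock array, with changes of -0.69, -0.68, -0.38 and -0.55 (SE 0.088 each) that became -0.028, 0.041, 0.55 and 0.040 after spike-in scaling. Atg101 measured 3.80 and 3.67 in mock, 4.27 and 4.07 after 6 h, 4.25 and 4.34 after 12 h, 4.58 and 4.71 after 24 h and 4.36 and 4.31 after 48 h. In mock wild-type cells it read 3.84 and 3.84. It was higher on all 8 AP20187 arrays, by 0.44, 0.56, 0.91 and 0.60 (SE 0.093 each), and also after spike-in scaling. Rb1cc1, which encodes FIP200, read 0.96 and 0.89 in mock, 0.96 and 0.91 after 6 h, 1.17 and 1.33 after 12 h, 1.31 and 0.91 after 24 h and 0.62 and 0.66 after 48 h. For this probe only the 12 h change passed, at 0.32 (SE 0.12, adjusted p = 0.0460), and it did not pass when any 1 array of the 6, 12 or 48 h groups or of either mock group was left out, with values of 0.24 to 0.40. The second probe of Rb1cc1 also passed at 12 h, at 0.32, and at 24 h gave 0.88 (SE 0.10), where the brightest gave 0.18.

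In the class III PI3-kinase group no change of the 2 core subunits passed against mock for the brightest probe, while the subunits and regulators that direct the enzyme rose: 3 of 6 genes at each time, and none fell. Pik3c3, the catalytic subunit, differed from mock by -0.045, -0.18, 0.11 and 0.017 at 6, 12, 24 and 48 h, and Pik3r4, its regulatory subunit, by 0.063, -0.18, -0.022 and -0.24. None of these passed, but a second probe of Pik3c3 did at 12 h, at -0.36 (SE 0.12). Over all 21 arrays Pik3c3 lay between -0.49 and 0.76. The SE of the changes was 0.11 and 0.093, so changes of that size could not be told from none. Pik3r4 read 1.0 and 0.88 in mock, 1.03 and 0.98 after 6 h, 0.83 and 0.68 after 12 h, 1.02 and 0.82 after 24 h and 0.67 and 0.74 after 48 h, and the difference of 48 h from 6 h was -0.30, a call lost without either array of either time (-0.33 to -0.27). Becn1, which encodes the scaffold Beclin 1, read 1.75 and 1.87 in mock, 1.96 and 1.82 after 6 h, 2.01 and 1.89 after 12 h, 2.43 and 2.18 after 24 h and 1.82 and 1.95 after 48 h, and rose at 24 h, by 0.49 (SE 0.11). Atg14, the subunit that sends the enzyme to sites of autophagosome formation, had 0.77 and 0.76 in mock, 1.61 and 1.55 after 6 h, 1.74 and 1.69 after 12 h, 1.91 and 1.95 after 24 h and 1.81 and 1.71 after 48 h. Its wild-type mock arrays read 0.94 and 0.87. All AP20187 arrays were above all mock arrays, with changes of 0.82, 0.95, 1.17 and 1.0 (SE 0.069 each, adjusted p = 4.01e-06 at 24 h), that is 1.76- to 2.25-fold. Uvrag, which takes the place of Atg14 in the endosomal form of the enzyme, climbed with time: 3.53 and 3.43 in mock, 3.99 and 4.04 after 6 h, 4.24 and 4.20 after 12 h, 4.77 and 4.93 after 24 h and 4.96 and 5.0 after 48 h. The wild-type mock pair was 3.49 and 3.5. Its change was 0.54 at 6 h and 1.5 at 48 h (SE 0.078 each), and 48 h was above 6 h by 0.96 (SE 0.078, adjusted p = 2.78e-05). On the single slide that holds both, 24 h was above 6 h by 0.83. Ambra1, a Beclin 1 partner, was highest after 6 h: 2.26 and 2.22 in mock, 2.83 and 2.85 after 6 h, 2.6 and 2.42 after 12 h, 2.43 and 2.40 after 24 h, and 2.6 and 2.58 after 48 h. It rose at 6 h, by 0.60 (SE 0.086), at 12 h, by 0.28, and at 48 h, by 0.35, and at 24 h its change of 0.18 did not pass. The 12 h call was lost without either mock array or 12 h replicate 1 (0.19 to 0.29), and the difference of 48 h from 6 h, -0.25, without either array of either time (-0.26 to -0.24). The rises of Atg14, Uvrag and Ambra1 were larger after spike-in scaling, where Pik3r4 also passed at 6 and 24 h (0.73 and 0.91), Pik3c3 at 24 h (1.04) and Becn1 at all 4 times (0.66 to 1.42).

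Among the proteins that read PI3P and feed lipids to the membrane, Atg2a and Atg2b were called in opposite directions at 12, 24 and 48 h. This is on the 75th-percentile scale. There the brightest probes of Wipi1 and Wipi2 were called in opposite directions at no time, but their second probes were at 12 and 24 h. After spike-in scaling none of the 5 genes fell, where 1079, 1436, 905 and 1323 of all 23386 entries fell at the 4 times. Wipi2, which recruits the conjugation machinery, read 1.37 and 1.34 in mock, 1.62 and 1.55 after 6 h, 1.62 and 1.49 after 12 h, 1.80 and 1.93 after 24 h and 2.10 and 2.06 after 48 h. Mock wild-type cells had 1.58 and 1.68. It rose at 6, 24 and 48 h, by 0.23, 0.51 and 0.72 (SE 0.081 each). At 6 h the AP20187 arrays overlapped the wild-type mock arrays, and that call was lost when any 1 array of Fv2E-PERK mock, 6 h or 48 h was left out (0.20 to 0.26). The second probe of Wipi2 passed at all 4 times with larger changes, 0.80, 0.96, 1.22 and 0.93 (SE 0.096 each). Its paralogue Wipi1 read 3.5 and 3.40 in mock, 2.97 and 3.17 after 6 h, 2.66 and 2.49 after 12 h, 2.95 and 2.93 after 24 h and 3.78 and 3.83 after 48 h, but the wild-type mock arrays alone spanned 3.28 to 4.0. Wipi1 fell at 12 h, with a change of -0.87 (SE 0.20) that was -0.15 after spike-in scaling. Its second probe passed at 12 h (-0.93) and also at 24 h (-0.88, SE 0.22), where the brightest gave -0.51. It was higher at 48 h than at 6 h by 0.73 (SE 0.20), a call lost without 6 h replicate 1 or 48 h replicate 2 (0.63 to 0.71), while 24 h against 6 h within 1 slide gave -0.13. Of the lipid transfer proteins, Atg2a read -0.78 and -0.92 in mock, -0.59 and -0.69 after 6 h, -0.51 and -0.66 after 12 h, -0.48 and -0.47 after 24 h and 0.05 and 0.03 after 48 h. It rose at 12, 24 and 48 h, with changes of 0.26, 0.37 and 0.89 (SE 0.090 each), the last on the other slide. The 12 h call was lost without mock replicate 2 or 12 h replicate 1 (0.19). Atg2b had -0.22 and -0.10 in mock, -0.88 and -0.92 after 6 h, -0.95 and -1.1 after 12 h, -0.78 and -0.90 after 24 h, and -0.38 and -0.49 after 48 h. Its changes of -0.75, -0.87, -0.69 and -0.28 (SE 0.086 each) became -0.082, -0.14, 0.25 and 0.31 after spike-in scaling, and the 48 h call was lost without mock replicate 2 or 48 h replicate 2 (-0.22). Atg9a, the transmembrane lipid scramblase that seeds the membrane, varied more between replicates: -1.35 and -0.91 in mock, -2.10 and -2.08 after 6 h, -1.51 and -2.12 after 12 h, -1.85 and -1.78 after 24 h, and -1.15 and -1.15 after 48 h. The 6, 12 and 24 h arrays were all below the mock arrays, with changes of -0.96, -0.68 and -0.68 (SE 0.20 each) that became -0.29, 0.044 and 0.25 after spike-in scaling, and at 48 h its change was -0.019. The 12 h call was lost without mock replicate 2 or 12 h replicate 2 (-0.46 to -0.38), and the 24 h call without mock replicate 2 or 24 h replicate 1 (-0.65 to -0.46).

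The conjugation genes held the largest rise of the 36 genes and no fall before 48 h. At 6, 12 and 24 h, 5 of 7 rose, with a median change of 0.38, 0.47 and 0.65. At 48 h 3 rose and 3 fell, and none of these falls passed after spike-in scaling. Atg16l2, a paralogue of the conjugation scaffold Atg16l1 that can also bind Atg5, is annotated at chr7:101286325-101302267 (GRCm38.p6, minus strand). It read 2.61 and 2.57 in mock, 4.53 and 4.36 after 6 h, 4.53 and 4.51 after 12 h, 3.57 and 3.62 after 24 h and 2.07 and 1.93 after 48 h. In mock wild-type cells it read 2.61 and 2.62. The 6 to 24 h arrays were all above the mock arrays and the 48 h arrays all below. The change was 1.85 at 6 h (3.61-fold, adjusted p = 1.83e-06) and 1.93 at 12 h (3.80-fold), then 1.01 at 24 h and -0.59 at 48 h (SE 0.082 each), and the difference of 48 h from 6 h was -2.45 (adjusted p = 1.62e-06). A second probe of Atg16l2 gave 2.13, 2.15 and 1.56 at the first 3 times but 0.28 at 48 h, which passed in the opposite direction. After spike-in scaling the brightest probe read -0.0076 at 48 h. No other autophagy gene had probes called in opposite directions, among 11 genes with a second tested probe. A RefSeq window of 250 bases before to 50 bases after a start of Atg16l2 (chr7:101302039-101302338, GRCm38.p6, minus strand) is shown because this gene had the largest change. That start lies inside the gene span given above and not at its outer end. The capitals mark a full match to the cAMP response element TGACGTCA, a motif that ATF and CREB family factors can bind. Its first base is at -18 from that start, which is also inside the gene span.
Atg16l2: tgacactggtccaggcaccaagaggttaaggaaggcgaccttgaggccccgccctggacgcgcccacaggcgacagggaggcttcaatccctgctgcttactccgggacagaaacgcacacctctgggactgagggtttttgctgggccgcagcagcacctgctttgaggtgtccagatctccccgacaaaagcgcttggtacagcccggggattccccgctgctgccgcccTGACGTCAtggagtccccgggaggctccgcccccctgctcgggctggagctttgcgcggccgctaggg

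Atg3 and Atg7 are the enzymes of the Atg8 conjugation, an E2-like and an E1-like enzyme. Atg3 read 3.09 and 2.97 in mock, 3.37 and 3.31 after 6 h, 3.70 and 3.72 after 12 h, 4.04 and 4.04 after 24 h and 3.56 and 3.59 after 48 h. Its wild-type mock arrays read 2.99 and 2.99. It peaked at 24 h, with changes of 0.31, 0.68, 1.02 and 0.55 (SE 0.068 each, adjusted p = 6.94e-06 at 24 h), and no AP20187 array overlapped a mock array. Atg7 read 0.26 and 0.27 in mock, 0.98 and 0.91 after 6 h, 0.81 and 0.76 after 12 h, 0.99 and 1.1 after 24 h and 1.30 and 1.30 after 48 h. The wild-type mock pair was 0.24 and 0.21. The brightest probe of Atg7 rose by 0.68, 0.52, 0.78 and 1.03 (SE 0.069 each), and its second probe, with an SE of 0.23, passed at 48 h at 1.1 but read -0.18 and -0.47 at 6 and 12 h. Atg16l1, the scaffold that sets the site of conjugation, read 0.78 and 0.78 in mock, 1.26 and 1.35 after 6 h, 1.30 and 1.21 after 12 h, 1.38 and 1.48 after 24 h and 1.30 and 1.38 after 48 h. Its rise lay between 0.47 and 0.65 at all times (SE 0.083). Atg12, the ubiquitin-like partner of Atg5, read 3.42 and 3.26 in mock, 3.74 and 3.70 after 6 h, 3.66 and 3.83 after 12 h, 3.92 and 3.85 after 24 h and 3.38 and 3.41 after 48 h. It rose at the first 3 times, by 0.38, 0.40 and 0.54 (SE 0.086 each), while its second probe passed at none. At 48 h it was lower than at 6 h, with a difference of -0.32 that was lost without 6 h or 48 h replicate 1 (-0.31) and was 0.16 for 24 h against 6 h within 1 slide. Atg5 and Atg10, the E2-like enzyme for Atg12, passed only at 48 h for the brightest probe. Atg5 read 3.07 and 3.03 in mock, 3.33 and 3.15 after 6 h, 3.11 and 3.32 after 12 h, 3.05 and 3.06 after 24 h and 2.78 and 2.81 after 48 h, a change of -0.25 (SE 0.091) at 48 h that became 0.33 after spike-in scaling and did not pass against wild-type mock of the same slide. The call was lost without any 1 array of 48 h or of either mock group (-0.27 to -0.24). Atg10 had 0.67 and 0.55 in mock, 0.73 and 0.77 after 6 h, 0.52 and 0.78 after 12 h, 0.36 and 0.40 after 24 h and 0.21 and 0.34 after 48 h, a change of -0.34 (SE 0.10) that became 0.25 after spike-in scaling and was lost without mock or 48 h replicate 1 (-0.28). The second probe of Atg10 passed at 6 h, at 0.40 (SE 0.15), and gave 0.14 at 48 h. Atg3 was above its 6 h level at 48 h by 0.24, a call lost without 6 h replicate 2 or either 48 h array (0.21 to 0.25). After spike-in scaling all 7 conjugation genes rose at 6, 12 and 24 h, where 9093, 10491 and 12975 of all 23386 entries rose. The start window of Atg3 (RefSeq, chr16:45158579-45158878, GRCm38.p6, plus strand) is shown because it is the only one among these genes with the palindrome TCACGTGA, the E-box form known as a binding sequence of the lysosomal regulators TFEB and TFE3. The capitals mark it, with its first base at -72.
Atg3: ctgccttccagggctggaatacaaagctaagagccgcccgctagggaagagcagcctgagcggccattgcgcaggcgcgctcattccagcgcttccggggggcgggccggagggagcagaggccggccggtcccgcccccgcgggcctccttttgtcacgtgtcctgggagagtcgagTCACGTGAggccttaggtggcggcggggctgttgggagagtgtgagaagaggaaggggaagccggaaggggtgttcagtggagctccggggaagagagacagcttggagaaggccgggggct

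The Atg4 proteases trim Atg8 proteins before conjugation and release them afterwards. Atg4a was well above background on 0 of 21 arrays (-7.22 to -5.67) and is not described further. Atg4d read 4.02 and 4.09 in mock, 4.40 and 4.36 after 6 h, 3.98 and 3.94 after 12 h, 3.51 and 3.62 after 24 h and 2.99 and 2.93 after 48 h. Mock wild-type cells had 4.14 and 4.23. Its change was 0.33 at 6 h (SE 0.074, adjusted p = 0.00457), -0.49 at 24 h and -1.09 at 48 h, with no overlap with the mock arrays at these times. After spike-in scaling the 24 h value turned to 0.44 and the 48 h value was -0.51, neither of which passed. The difference of 48 h from 6 h was -1.42 (SE 0.074), and that of 24 h from 6 h within 1 slide was -0.82. After spike-in scaling they were -1.5, which passed, and -0.55, which did not. Atg4c read 0.94 and 0.98 in mock, 0.17 and 0.24 after 6 h, -0.02 and -0.07 after 12 h, -0.17 and -0.49 after 24 h and 0.07 and 0.05 after 48 h. In mock wild-type cells it read 1.14 and 1.14. It fell at all times, most at 24 h with a change of -1.29 (SE 0.10), and stayed below 0 without passing after spike-in scaling (-0.092, -0.28, -0.36 and -0.31). Atg4b, the protease with the broadest substrate range, read 0.19 and -0.00 in mock, -0.10 and -0.10 after 6 h, -0.16 and -0.10 after 12 h, 0.43 and 0.58 after 24 h and 0.43 and 0.33 after 48 h. It rose by 0.41 at 24 h and 0.28 at 48 h (SE 0.090 each), and the 48 h call was lost without mock replicate 2 or 48 h replicate 1 (0.19 to 0.24).

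Of the 5 Atg8 genes most fell at 6 and 12 h on the 75th-percentile scale, and the number that rose there grew with time. At 6 h none rose and 4 fell, at 12 h 1 rose and 3 fell, at 24 h 2 rose and 2 fell, and at 48 h 3 rose and 1 fell. After spike-in scaling 1, 2, 3 and 3 of the 5 genes rose and none fell. Of all 23386 entries 9093, 10491, 12975 and 10086 rose and 1079, 1436, 905 and 1323 fell after that scaling. On the 75th-percentile scale the median change of the 5 genes was -0.96, -0.75, 0.15 and 0.35 in order of time. At 48 h all 5 were above their 6 h level (60.8% of all entries passed in that comparison with 33.2% higher and 27.6% lower at 48 h), and on 1 slide 4 of the 5 were above it at 24 h (39.3% of all entries passed there). Map1lc3b, which encodes LC3B, the usual marker protein of autophagosomes (chr8:121590438-121598760, GRCm38.p6, plus strand), read 4.63 and 4.71 in mock, 3.73 and 3.62 after 6 h, 3.99 and 3.86 after 12 h, 4.80 and 4.85 after 24 h and 5.45 and 5.37 after 48 h. Its wild-type mock arrays read 4.74 and 4.66. The 6 and 12 h arrays were below every mock array and the 24 and 48 h arrays above. Its changes were -1.0, -0.75, 0.15 and 0.74 (SE 0.083 each), and those of 6 and 12 h became -0.33 and -0.022 after spike-in scaling. The 48 h level was 3.33-fold the 6 h level (log2 1.73, adjusted p = 4.01e-06), the 24 h level was above 6 h by 1.15, and the 48 h to 6 h difference passed after spike-in scaling as well, at 1.66. The start window of Map1lc3b (RefSeq, chr8:121590188-121590487, GRCm38.p6, plus strand) is shown because this gene had the largest late rise from 6 h. The capitals mark a match to TGACNNNGC, the core of the antioxidant response element, with its first base at 4 from the start.
Map1lc3b: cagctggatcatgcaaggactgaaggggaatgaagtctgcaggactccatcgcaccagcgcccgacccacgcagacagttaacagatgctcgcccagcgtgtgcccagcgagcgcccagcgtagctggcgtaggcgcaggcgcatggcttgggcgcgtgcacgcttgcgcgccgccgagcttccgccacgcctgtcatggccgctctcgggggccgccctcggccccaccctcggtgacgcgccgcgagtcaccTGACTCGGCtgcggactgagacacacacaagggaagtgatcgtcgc

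Map1lc3a, the LC3A gene, had no early fall: 1.76 and 1.88 in mock, 2.02 and 2.06 after 6 h, 2.32 and 2.16 after 12 h, 2.69 and 2.88 after 24 h and 3.10 and 3.09 after 48 h. The wild-type mock pair was 1.61 and 1.64. All AP20187 arrays were above all mock arrays. The change grew through 0.22, 0.42, 0.97 and 1.28 (SE 0.091 each), and the one at 6 h did not pass. Gabarap had 6.83 and 6.83 in mock, 5.78 and 5.72 after 6 h, 5.82 and 5.89 after 12 h, 6.23 and 6.53 after 24 h and 6.72 and 6.67 after 48 h. Mock wild-type cells had 7.09 and 7.17. Every AP20187 array was below every mock array, with changes of -1.08 at 6 h (SE 0.10, adjusted p = 4.09e-05), -0.97 at 12 h and -0.45 at 24 h, while the 48 h change of -0.14 did not pass. After spike-in scaling the first 3 values were -0.42, -0.25 and 0.48. Gabarapl2 stayed low at all times: 6.43 and 6.31 in mock, 5.46 and 5.35 after 6 h, 5.29 and 5.32 after 12 h, 5.52 and 5.53 after 24 h and 5.68 and 5.69 after 48 h. In mock wild-type cells it read 6.34 and 6.53. Its changes of -0.96, -1.06, -0.84 and -0.68 (SE 0.086 each) became -0.30, -0.34, 0.089 and -0.097 after spike-in scaling, with none passing. It was above its 6 h level at 48 h by 0.28, a call lost without 6 h replicate 2 or either 48 h array (0.23 to 0.29). Gabarapl1 read 6.81 and 6.77 in mock, 6.44 and 6.41 after 6 h, 6.64 and 6.70 after 12 h, 7.19 and 7.27 after 24 h and 7.14 and 7.14 after 48 h. Its change was -0.36 at 6 h (SE 0.072), which turned to 0.30 after spike-in scaling and to 0.27 after quantile normalization. Gabarapl1 rose by 0.44 at 24 h and 0.35 at 48 h.

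**Figure D2:**
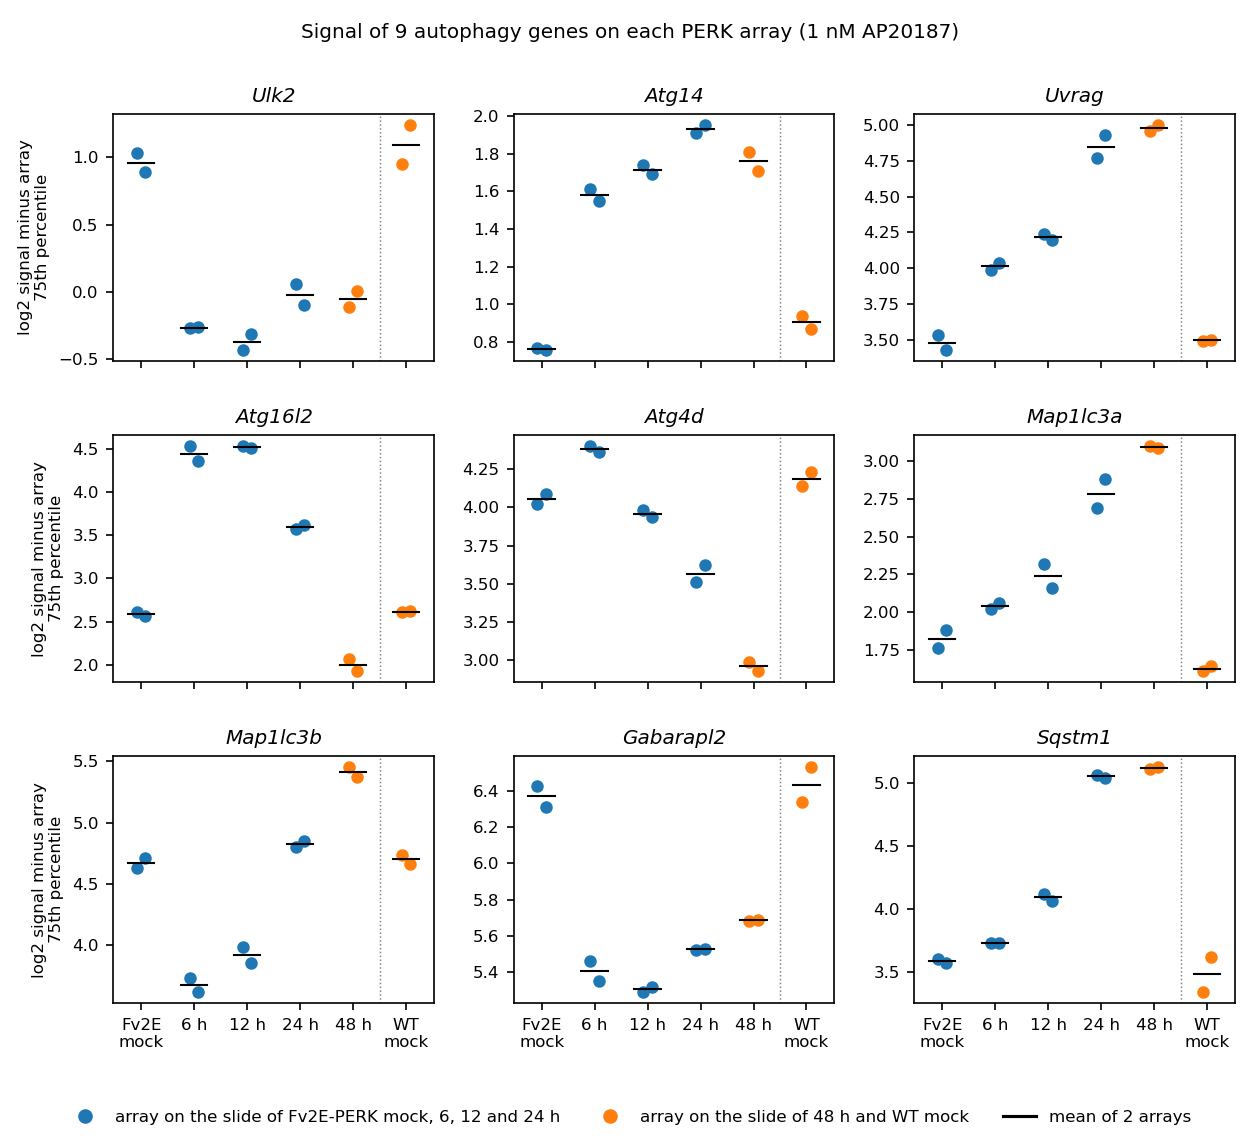
Log2 signal minus the array's 75th percentile on each PERK array for 9 autophagy genes, in mock Fv2E-PERK cells, at 6, 12, 24 and 48 h of AP20187 and in mock wild-type cells. Points are arrays, coloured by slide, and bars are means of 2 arrays. Uvrag, Map1lc3a and Sqstm1 climb with time, Atg16l2 is highest at 6 and 12 h (4.36 to 4.53) and lowest at 48 h, and Map1lc3b is lowest at 6 h and highest at 48 h.

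The 5 cargo receptors, which link cargo to Atg8 proteins, were called higher at more times from 12 h on. On the 75th-percentile scale none rose at 6 h, 3 rose at 12 h and 4 rose at 24 and at 48 h, with a median change of -0.0040, 0.38, 0.85 and 0.49; 1 fell, at 6 h. After spike-in scaling 3, 4, 5 and 5 of them rose and none fell, with a 6 h median of 0.66 beside 0.44 over all entries. Of all 23386 entries 9093, 10491, 12975 and 10086 rose and 1079, 1436, 905 and 1323 fell after that scaling. All 5 receptors were above their 6 h level at 48 h, and all 5 at 24 h on the same slide, where 33.2% and 20.8% of all entries were called higher. Sqstm1, which encodes p62 and is on chr11:50200152-50210820 (GRCm38.p6, minus strand), read 3.60 and 3.57 in mock, 3.73 and 3.73 after 6 h, 4.12 and 4.06 after 12 h, 5.06 and 5.04 after 24 h and 5.11 and 5.12 after 48 h. Its wild-type mock arrays read 3.34 and 3.62. All AP20187 arrays were above all mock arrays, and the step between 12 and 24 h was wider than any spread within a group. The change was 0.15 at 6 h, which did not pass, then 0.50, 1.47 and 1.53 (SE 0.094 each), or 2.77-fold at 24 h (adjusted p = 5.49e-06) and 2.90-fold at 48 h. Nbr1, a receptor that acts with p62, read 0.78 and 0.58 in mock, 0.73 and 0.80 after 6 h, 1.05 and 1.07 after 12 h, 1.58 and 1.47 after 24 h and 1.25 and 1.42 after 48 h. It rose by 0.38, 0.85 and 0.66 (SE 0.12 each) from 12 h on, and the 12 h call was lost without mock replicate 2 or either 12 h array (0.28 to 0.39). Tax1bp1, a receptor for ubiquitylated cargo, read 3.21 and 2.95 in mock, 3.06 and 3.09 after 6 h, 3.52 and 3.59 after 12 h, 4.01 and 3.99 after 24 h and 3.52 and 3.63 after 48 h, and rose by 0.48, 0.92 and 0.49 (SE 0.099 each). Optn, optineurin, a receptor for damaged mitochondria, read -0.50 and -0.56 in mock, -0.53 and -0.58 after 6 h, -0.51 and -0.42 after 12 h, -0.10 and -0.20 after 24 h and -0.13 and -0.18 after 48 h, and rose by 0.38 at 24 h and at 48 h (SE 0.074). Calcoco1, reported in human cells as a receptor for endoplasmic reticulum, had the widest spread between replicates of the 5: -2.71 and -2.24 in mock, -3.28 and -3.04 after 6 h, -2.72 and -2.90 after 12 h, -2.48 and -1.98 after 24 h and -2.07 and -1.89 after 48 h. Its change at 6 h was -0.69 (SE 0.20), was -0.021 after spike-in scaling and was lost without mock replicate 2 or 6 h replicate 1 (-0.57 to -0.45), while 48 h was above 6 h by 1.18 (SE 0.20, adjusted p = 0.00127). The start window of Sqstm1 (RefSeq, chr11:50210771-50211070, GRCm38.p6, minus strand) is shown because it had the largest rise at 24 and 48 h. It holds none of the 5 motifs searched.
Sqstm1: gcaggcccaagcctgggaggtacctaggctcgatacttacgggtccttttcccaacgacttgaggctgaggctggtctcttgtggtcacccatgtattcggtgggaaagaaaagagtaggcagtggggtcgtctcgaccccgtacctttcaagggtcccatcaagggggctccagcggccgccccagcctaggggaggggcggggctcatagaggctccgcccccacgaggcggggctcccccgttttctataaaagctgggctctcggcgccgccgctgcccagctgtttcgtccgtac

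The motifs searched on both strands were TTNCATCA (the composite element bound by C/EBP and ATF proteins, such as CHOP with ATF4), TCACGTGA, TGACNNNGC, the endoplasmic reticulum stress response element, and TGACGTCA, which was added after the windows were seen. RefSeq windows were found for 31 of the 37 genes. Like that of Atg16l2, the window starts of Ulk2 and Tax1bp1 lie inside the gene span and not at its outer end. TTNCATCA was in 0 of the 31 and in 3.97% of all 32851 windows. TGACNNNGC was in those of Atg13, Map1lc3b, Tax1bp1 and Ulk2, and in 12.4% of all. TGACGTCA was in those of Atg16l2 and Atg5, and in 1.79% of all. TCACGTGA was in that of Atg3, and in 0.974% of all. The stress response element was in none of the 31, and in 0.119% of all. The changes at 6 h were 1.85 for Atg16l2 and 0.19 for Atg5. These matches are letters in the window and say nothing of binding.

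After spike-in scaling the same comparison against Fv2E-PERK mock gave no fall at any of the 4 times and 20, 22, 26 and 21 rises of 36 at 6, 12, 24 and 48 h, where 9093, 10491, 12975 and 10086 of 23386 entries rose. All 11, 15, 18 and 17 rises found with the 75th percentile were among them. At 6 h the median change after spike-in scaling was 1.05 for the conjugation genes and 0.97 for the PI3-kinase group, against 0.15 for the initiation complex and -0.30 for the Atg8 genes, and at 48 h the Atg8 genes were at 0.93. Between 48 h and 6 h the spike-in scaling moved all entries by only -0.079, but its spread between arrays was wider, and 10 genes in place of 26 passed: Uvrag, Atg9a, Map1lc3a, Map1lc3b, Gabarap, Gabarapl1, Sqstm1 and Calcoco1 higher at 48 h, and Atg16l2 and Atg4d lower.

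**Figure D3:**
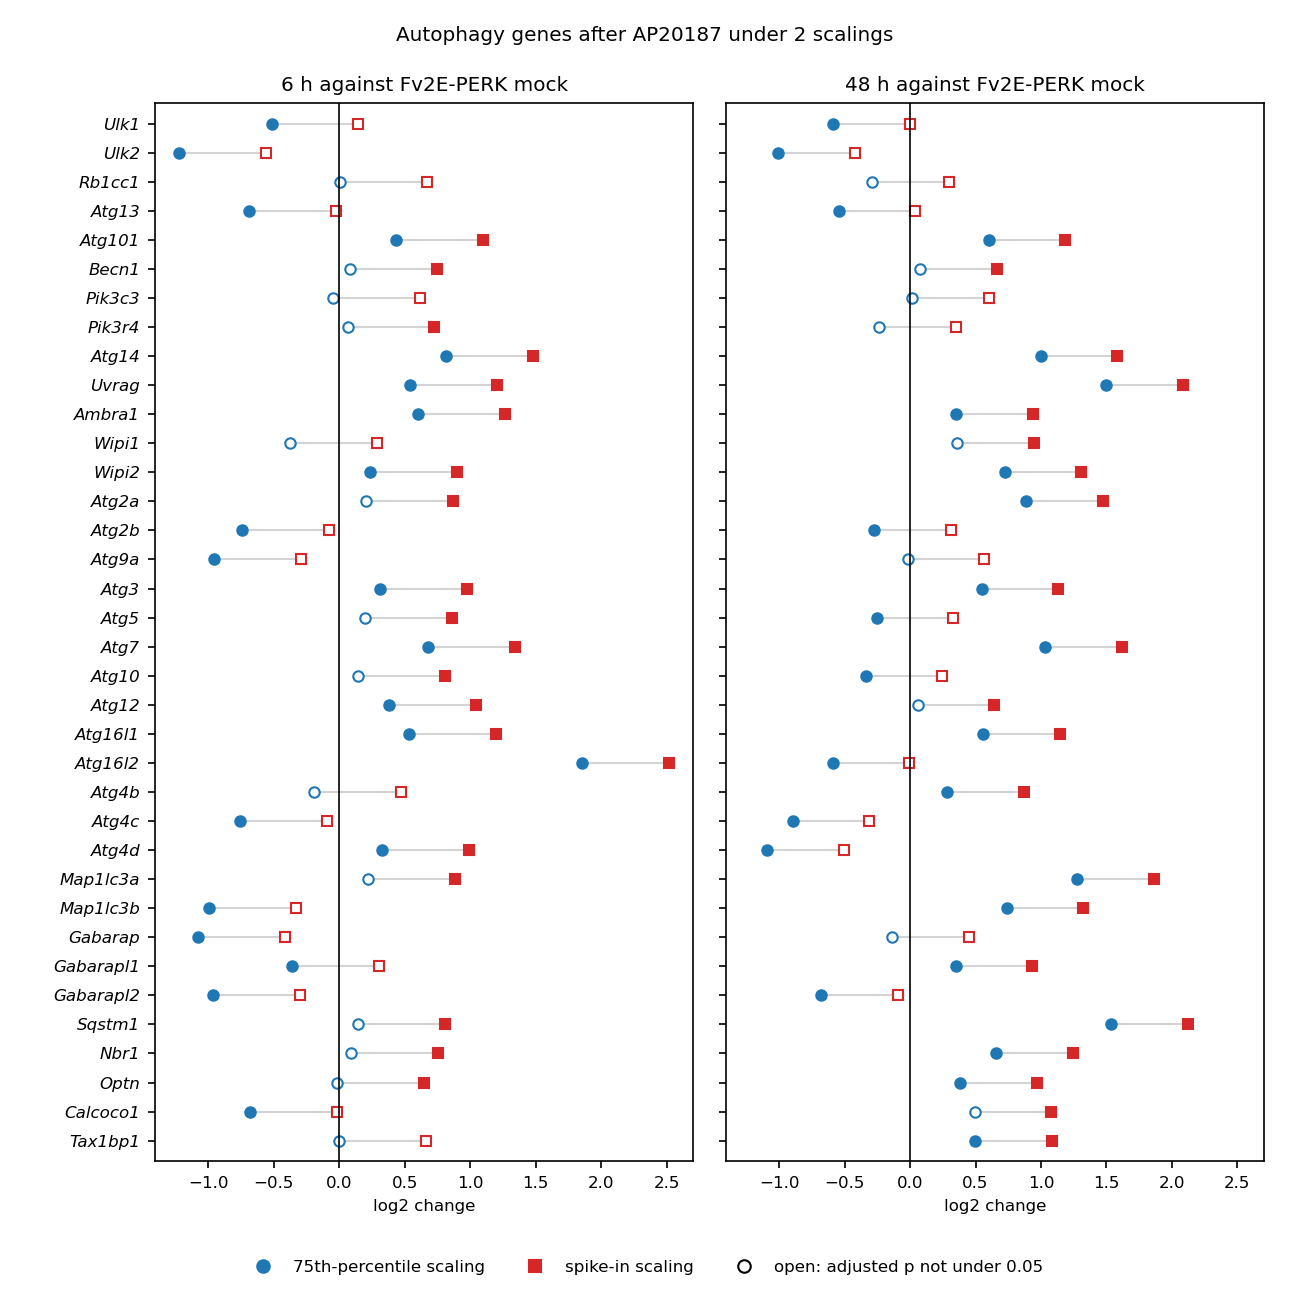
Log2 change of the 36 autophagy genes at 6 h and at 48 h of AP20187 against Fv2E-PERK mock (2 arrays a group) under the 75th-percentile scaling (blue circles) and the spike-in scaling (red squares). Filled symbols have adjusted p under 0.05. At 6 h the red values are higher by 0.66 for every gene, all 11 filled blue values below 0 are open in red, and the order of the genes is the same.

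At 48 h the mock arrays of the same slide were those of wild-type cells. Set against them, 17 genes rose and 11 fell at 48 h (63.8% of all entries passed). Of the 27 calls against Fv2E-PERK mock, 26 were made again in the same direction, without Atg5. Both comparisons use the same 48 h arrays and differ in the cells of the mock group, so this is no independent check. The share of all entries called again was not counted. Sqstm1 was higher by 1.63 (SE 0.094), Uvrag by 1.48, Map1lc3a by 1.47 and Map1lc3b by 0.71, and the changes of Atg4d and Ulk2 were -1.22 and -1.14. Pik3r4 at -0.25 and Gabarap at -0.44 passed here and not against Fv2E-PERK mock. Within the other slide, 24 h set against 6 h gave 17 genes higher and 6 lower, beside 20.8% higher and 18.5% lower of all entries. Sqstm1 was higher by 1.32, Map1lc3b by 1.15, Calcoco1 by 0.93 and Tax1bp1 by 0.92. Between mock Fv2E-PERK and mock wild-type cells, which also differ in slide, 0 genes of 36 rose and 2 fell, beside 20.0% of all entries that passed (9.23% higher and 10.8% lower). These were Atg13, at 4.01 and 4.03 in Fv2E-PERK mock against 4.26 and 4.52 in wild-type mock (-0.38, SE 0.088), and Wipi2, at 1.37 and 1.34 against 1.58 and 1.68 (-0.27, SE 0.081). Neither passed after spike-in scaling, and leaving out single arrays gave between 0 and 3 calls: Atg13 was lost without wild-type mock replicate 2 or either Fv2E-PERK mock array (-0.38 to -0.25), and Wipi2 without any 1 array of the mock, 6, 12 or 48 h groups (-0.33 to -0.22).

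Of the 12 autophagy genes on a list of reported ATF4 or CHOP targets in mouse fibroblasts (Sqstm1, Nbr1, Atg7, Atg16l1, Map1lc3b, Atg12, Atg3, Becn1, Gabarapl2, Atg10, Gabarap and Atg5), 4 rose and 3 fell at 6 h, 6 rose and 3 fell at 12 h, 7 rose and 2 fell at 24 h, and 6 rose and 3 fell at 48 h. After spike-in scaling 9, 9, 10 and 8 of the 12 rose and none fell. Among all entries 24.9%, 27.1%, 27.0% and 27.2% rose and 40.0%, 40.5%, 40.4% and 34.6% fell at these times on the 75th-percentile scale. With spike-in scaling 9093, 10491, 12975 and 10086 of 23386 entries rose. On the 75th-percentile scale the 24 other genes had 7, 9, 11 and 11 rises and 8, 7, 7 and 7 falls. Their median changes were 0.14, 0.27, 0.52 and 0.31 for the listed genes, against -0.012, -0.10, 0.21 and 0.32 for the others. This difference was not tested. Falls of listed genes were those of Map1lc3b, Gabarap and Gabarapl2 at 6 and 12 h, of Gabarap and Gabarapl2 at 24 h, and of Gabarapl2, Atg5 and Atg10 at 48 h, all with the values after spike-in scaling given above.

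Genes around the core pathway were counted from lists fixed with earlier results of these data known. Among all entries 24.9%, 27.1%, 27.0% and 27.2% rose and 40.0%, 40.5%, 40.4% and 34.6% fell at 6, 12, 24 and 48 h on the 75th-percentile scale. With spike-in scaling 9093, 10491, 12975 and 10086 of 23386 entries rose and 1079, 1436, 905 and 1323 fell. The selective receptors of mitochondria and endoplasmic reticulum mostly fell on the 75th-percentile scale: of 15, 11 fell at 6 h and 10 at each later time, while 0, 0, 1 and 1 rose in the same order of times. After spike-in scaling 3, 2, 1 and 2 of them fell and 1, 2, 7 and 3 rose. Bnip3, a mitophagy receptor known for its induction by hypoxia, changed by -2.10 at 6 h, -3.0 at 12 h, -3.52 at 24 h and -3.98 at 48 h (SE 0.069 each), and still fell after spike-in scaling, at -1.44, -2.28, -2.6 and -3.39. Its relative Bnip3l, the receptor NIX, changed by -1.68 at 6 h and -1.87 at 48 h (SE 0.088), and Retreg1, a receptor for sheets of endoplasmic reticulum, by -1.36 at 6 h (SE 0.11). After spike-in scaling these were -1.02, -1.28 and -0.70. Among 19 upstream regulators, 7 rose and 5 fell at 6 h and 9 rose and 3 fell at 48 h. Tfe3, a transcription factor for lysosomal and autophagy genes, was higher at 6 h by 1.32 (SE 0.081), Flcn, which encodes folliculin, a restraint on TFE3, changed by -1.94 there (SE 0.083) and Rragc, a lysosomal GTPase of the same pathway, by -1.29 (SE 0.079), and both still fell after spike-in scaling (-1.27 and -0.63). At 48 h the largest rise was that of Akt1s1, an mTORC1 subunit, at 1.71 (SE 0.10). Of 16 other autophagosome formation genes 4 rose and 5 fell at 6 h, led by Nrbf2, a subunit that associates with the Atg14 complex, at 0.91 (SE 0.077), and 4 rose and 4 fell at 48 h, where Epg5, a tethering factor for fusion, was at 1.20 (SE 0.13). Of 12 fusion genes 3 rose and 4 fell at 6 h and 4 rose and 2 fell at 48 h, with Vamp8, a fusion SNARE, at -0.83 (SE 0.11) at 6 h, which was -0.17 after spike-in scaling, and Stx17, the autophagosomal SNARE, at 0.61 (SE 0.080) at 48 h. After spike-in scaling 9 regulators rose and 3 fell at 6 h and 13 rose and 1 fell at 48 h, 8 formation genes rose and none fell at 6 h and 9 rose and 1 fell at 48 h, and 7 fusion genes rose at 6 h and 9 at 48 h, with no fall.

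With palmitate few of these genes changed. Against untreated cells 3 rose and 2 fell of 36, beside 20.1% of all entries that passed (7.41% higher and 12.6% lower), and the median change of the 36 was -0.056. Against oleate 3 rose and none fell (13.8% of all entries passed, and 7.48% were higher). Wipi1 had 4.5, 4.55 and 4.56 in palmitate cells, 4.06, 4.0 and 4.07 in oleate cells, and 4.0, 3.98 and 4.15 in untreated cells. The palmitate arrays lay above all others, by 0.49 against untreated (SE 0.058, adjusted p = 0.00136) and by 0.49 against oleate (adjusted p = 0.00178), a 1.41-fold difference. Sqstm1 had 4.93, 4.90 and 4.71 with palmitate, 4.45, 4.51 and 4.46 with oleate, and 4.31, 4.47 and 4.36 untreated. Here too the palmitate arrays did not overlap the others, with a change of 0.47 against untreated (SE 0.072, adjusted p = 0.00412) and 0.37 against oleate (SE 0.072). Atg3 read 3.06, 3.02 and 3.0 with palmitate, 2.78, 2.80 and 2.76 with oleate and 2.84, 2.86 and 2.90 untreated. Its changes were 0.16 against untreated and 0.25 against oleate (SE 0.043 each). In the values of the authors' deposited series matrix the Atg3 changes turned to -0.064 and -0.039, where the median difference of all entries moved by -0.23 and -0.29. Atg4d read 4.07, 4.16 and 4.14 with palmitate and 4.38, 4.29 and 4.25 untreated (-0.18, SE 0.052), and 4.16, 4.11 and 4.18 with oleate, overlapping the palmitate arrays. A second probe of Atg12 passed against untreated, at -0.27 (SE 0.058), where the brightest gave -0.044. Gabarapl2 read 6.27, 6.39 and 6.39 with palmitate, 6.47, 6.48 and 6.42 with oleate and 6.55, 6.59 and 6.49 untreated (-0.19 against untreated, SE 0.053). Leaving out any 1 of the 9 arrays kept the calls of Wipi1 and Sqstm1 against untreated and lost those of Atg3 (0.14 to 0.18), Atg4d (-0.21 to -0.15) and Gabarapl2 (-0.22 to -0.15), and without oleate replicate 1 Sqstm1 did not pass against oleate (0.36). In the values of the authors' deposited series matrix none of the 5 calls was made, and after spike-in scaling those of Wipi1 (0.67) and Sqstm1 (0.65) were.

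Oleate changed none of the 36 genes by the limma test, where 0.837% of all entries passed. At an unadjusted p under 0.05 the number was 4, and none of the alternatives run gave a call. The largest value was that of Nbr1, at 1.15, 1.16 and 0.90 with oleate against 0.90, 0.11 and 0.78 untreated (0.47, SE 0.19), where untreated replicate 2 stood far below the other arrays. Palmitate arrays read 1.08, 0.99 and 1.09. The values of the other 35 genes lay between -0.17 and 0.10.

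**Figure D4:**
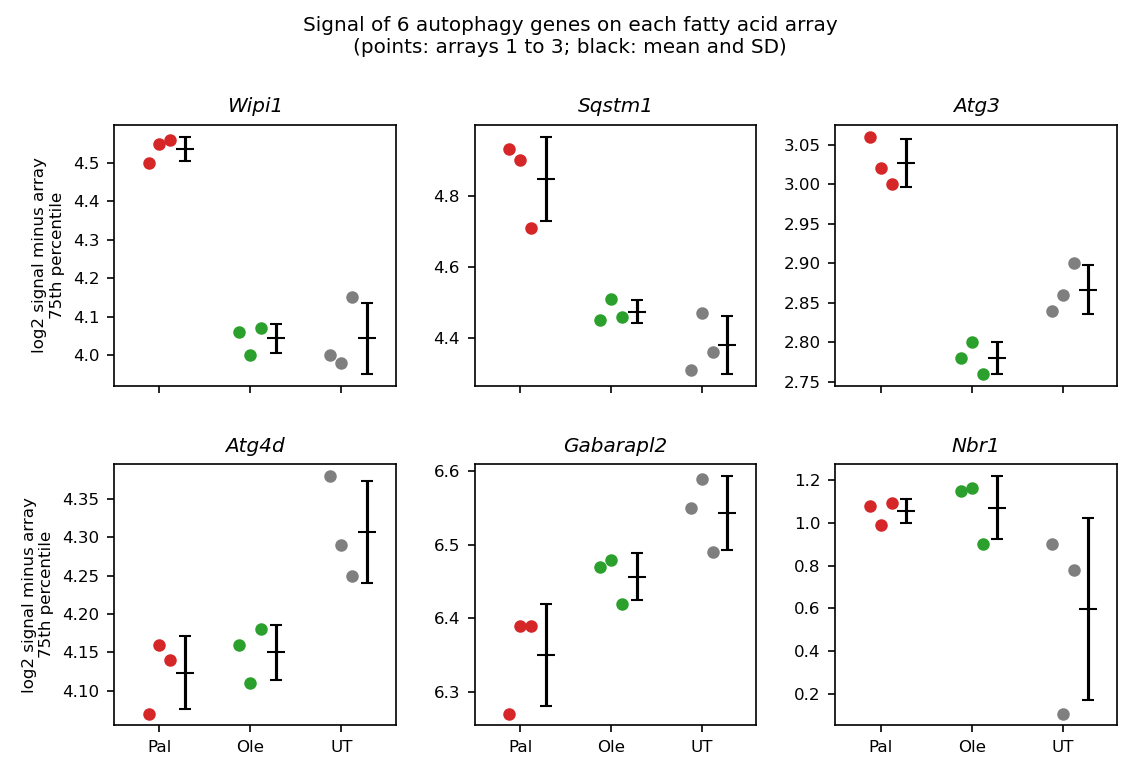
Log2 signal minus the array's 75th percentile of 6 autophagy genes on each array of palmitate (Pal), oleate (Ole) and untreated (UT) cells. Points are arrays 1 to 3, black marks are the mean and SD of 3 arrays. Wipi1, Sqstm1 and Atg3 are highest on the 3 palmitate arrays, Gabarapl2 is lowest there, Atg4d is low with both fatty acids, and 1 untreated array of Nbr1 stands apart at 0.11.

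The fatty acid arrays also differed in transcripts of muscle. Of 9 heart muscle genes, 4 were well above background on some palmitate array, with a summed relative signal of 0.221 to 0.932, against 9 in oleate arrays, at 13.3 to 16.1, and 8 in untreated arrays, at 12.3 to 15.8. Tnnt2, Tnni3, Mybpc3, Myl7 and Pln were above background on no palmitate array. This difference and the treatment cannot be told apart within this experiment. In mock wild-type cells of the other experiment 2 of the 9 were well above background on some array, at 0.259 to 0.288. All groups of that experiment lay between 0.166 and 0.508. The untreated and oleate arrays, the controls of the palmitate comparisons, are thus the ones that stand apart. The part of this in the palmitate calls was not tested. Of 20 skeletal muscle genes, 19 were well above background on some palmitate array, with summed values of 4.61 to 36.0, against 10 in oleate arrays, at 5.83 to 6.35, and 10 in untreated arrays, at 5.6 to 8.20. Palmitate replicates 1 and 2 carry them, at 35.4 and 36.0, and replicate 3, at 4.61, does not. Replicate 3 also lay alone on its own slide, with the other 8 fatty acid arrays on another, so slide and these transcripts cannot be told apart among the palmitate arrays. Replicate 3 alone gave 0.52 for Wipi1 and 0.33 for Sqstm1 against untreated, and of these only Wipi1 passed in a fit that takes the spread of the single palmitate array from the other groups. With slide as a block, Wipi1 was higher by 0.48 and Sqstm1 by 0.54, and both passed. Replicate 3 is alone on its slide, so this fit is the same as leaving it out. It rests on palmitate replicates 1 and 2, which carry the skeletal muscle transcripts, and cannot separate slide from treatment. Over the 36 genes the change with palmitate had the sign of that with AP20187 for 19, 19, 17 and 19 genes at 6, 12, 24 and 48 h. Among all entries the sign was the same for 54.8%, 55.4%, 58.8% and 60.3%. The values with palmitate and with AP20187 stand side by side for the genes called with palmitate against untreated. Sqstm1 was at 0.47 with palmitate and at 0.15, 0.50, 1.47 and 1.53 at the 4 AP20187 times. Atg3 was at 0.16, and at 0.31, 0.68, 1.02 and 0.55. Gabarapl2 was at -0.19, and at -0.96, -1.06, -0.84 and -0.68. Wipi1 was at 0.49, and at -0.37, -0.87, -0.51 and 0.36. Atg4d was at -0.18 with palmitate, and at 0.33, -0.49 and -1.09 at 6, 24 and 48 h. After spike-in scaling the palmitate values of Gabarapl2 and Atg4d were -0.012 and -0.00084. That of Gabarapl2 at 48 h of AP20187 was -0.097.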

How the data were processed

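RNA of 21 samples was measured on 1-colour Agilent arrays. The deposited intensity values were background-subtracted processed signals from Agilent Feature Extraction 10.7.1.1, per the file headers. The authors' deposited series matrix holds log2 values of unstated centring, and it served as an alternative only. Each processed signal was turned to log2 minus the array's 75th percentile, probes of a gene were represented by the brightest, and entries well above background on all arrays of a group were kept. Each experiment was fitted apart with limma 3.58.1 in R 4.3.3 (lmFit, eBayes, Benjamini-Hochberg over 21279 fatty acid and 23386 PERK entries), checked first on simulated data; tables were made with Python 3.11.15 and pandas 2.3.3. Samples were grouped by the labels; for 1 wild-type mock array the title's replicate number was used where the source name differed. No column of per-sample values was left unmapped.

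All 37 genes are named. Values on the arrays are given for genes that passed, in the experiment where they passed, and other genes by their changes. The wild-type mock arrays are given for only part of the genes that passed. From lists of other genes at most the 4 called genes with the largest change in a comparison are named. Members and lists were chosen with earlier results of these data known. The labels do not say that replicate numbers mark a shared culture or day, and no replicate block was used. Alternatives were quantile normalization, normexp background, spike-in scaling, the series matrix, other filters, the mean over probes, blocks and leaving out arrays; 48 h against wild-type mock and 24 h against 6 h were added after the slides were seen.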

Additional observations from a re-analysis of the deposited data

Results flagged for a closer look

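The change with AP20187 against Fv2E-PERK mock differed between 48 h and 6 h, by a test of the difference itself in the limma fit and by more than 1 on the log2 scale, for 6 autophagy genes. Atg16l2 differed by -2.446, with changes of -0.59 at 48 h and 1.85 at 6 h, and Atg4d by -1.422, with -1.09 at 48 h and 0.33 at 6 h. Map1lc3b differed by 1.735 (0.74 at 48 h and -1.0 at 6 h), Sqstm1 by 1.388 (1.53 and 0.15), Calcoco1 by 1.178 (0.49 and -0.69) and Map1lc3a by 1.057 (1.28 and 0.22). The 48 h and 6 h arrays lie on different slides, so slide and time cannot be told apart in these values. Between 24 h and 6 h, on 1 slide, the differences were -0.85, -0.82, 1.15, 1.32, 0.93 and 0.74 for Atg16l2, Atg4d, Map1lc3b, Sqstm1, Calcoco1 and Map1lc3a.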

How the results depend on the processing

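Of 137 calls on single autophagy genes, 60 kept their direction and stayed past the threshold under every alternative run, 57 were lost under at least 1 without turning round, and 20 turned round. The 5 palmitate calls against untreated became 3 with quantile normalization or normexp, 2 with spike-in scaling, without the filter on dim probes or with slide as a block, 0 with the series matrix, and 1 without the palmitate arrays that carry skeletal muscle transcripts, which leaves 1 palmitate array, assumed to vary like the other groups, and were 2 without any single array. The 3 calls against oleate became 0 with the series matrix, 1 without the filter and 1 without those palmitate arrays (2 to 3 without single arrays). The 26 calls of 48 h against 6 h became 10 with spike-in scaling (21 to 27 without single arrays), and the 2 calls between the mock groups became 0 with spike-in scaling or no filter, and 1 with the series matrix or the mean over probes (0 to 3). Without single arrays the counts were 20 to 23 at 6 h, 21 to 27 at 12 h, 26 to 28 at 24 h, 24 to 30 at 48 h, and 0 for oleate. With the replicate number as a block, 2 genes passed for palmitate against untreated and 1 between the mock groups. The numbers were not shown to pair the samples. The correlation of same-numbered deviations was -0.027 to 0.035 in 9 fatty acid pairs and -0.0069 to 0.13 in 30 PERK pairs (median 0.060, over 0.1 in 4). In a group of 2 arrays the deviations mirror each other, so each PERK correlation occurs under both replicate numbers. Of the fatty acid arrays 3 of 9 correlated best with their own number, and of the PERK arrays 12 of 12. The PERK arrays are not 12 separate results, and the 2 counts cannot be compared. They are at most a hint from the data and not from the design. Values that turned round under spike-in scaling were those of Ulk1 (0.15 at 6 h, 0.41 at 12 h, 0.20 at 24 h), Gabarapl1 at 6 h (0.30; 0.27 with quantile normalization), Atg13 (0.041 at 12 h, 0.55 at 24 h, 0.040 at 48 h), Atg9a (0.044 at 12 h, 0.25 at 24 h), Atg2b (0.25 at 24 h, 0.31 at 48 h), Atg4d (0.44), Gabarap (0.48) and Gabarapl2 (0.089) at 24 h, and Atg5 (0.33) and Atg10 (0.25) at 48 h. Atg3 turned to -0.064 against untreated and -0.039 against oleate with the series matrix, which moved the median of all entries by -0.23 and -0.29, and 24 h against 6 h within 1 slide gave -0.13 for Wipi1 and 0.16 for Atg12. For the other values the cause was not tested. Slide as a block could not be fitted for the PERK experiment, where the 48 h and wild-type mock arrays share no slide with the others. In the fatty acid experiment it is the same as leaving out palmitate replicate 3 and is no separate check. Signal over background limits only Atg4a, which was well above background on 0 of 21 arrays.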
